A study of Mus musculus with 34 samples.

Results

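The 7 genes described here encode the receptors for the fat-derived hormone adiponectin, Adipor1 and Adipor2, the adiponectin-binding cadherin Cdh13, the receptor adaptors Appl1 and Appl2, and the catalytic subunits of AMP-activated protein kinase (AMPK), Prkaa1 and Prkaa2. They were taken by GENCODE gene symbol from a bulk RNA-seq table of 54532 gene rows. All 7 were among the 22018 genes left after a filter on low counts. The set was selected on the contrast reported below: the log2 fold change of Adipor2 between trained and untrained mice, and its small adjusted p, were known when these genes were chosen. Values of the members in that contrast are therefore given as a description, without a test.

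Dorsal hippocampi came from 8 C57BL/6J males aged 2 to 3 months, 1 library per mouse, and no transgene or drug is named for either group. The homecage group (HC, n = 4) stayed in its cages, and the SOR group (n = 4) was taken 1 h after training in spatial object recognition, a task in which a mouse explores objects at fixed places in an open field. Per the methods, mice were housed singly for 7 days before training, and training took place early in the light phase. The comparison asks which transcripts differ in the hippocampus during the first hour of memory consolidation. Bulk RNA of a tissue cannot tell fewer cells of a type from less RNA per cell.

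Adiponectin circulates as oligomers and binds AdipoR1 and AdipoR2, membrane proteins of the PAQR family whose amino terminus lies inside the cell. In liver and muscle AdipoR1 is linked mainly to AMPK and AdipoR2 mainly to the nuclear receptor PPAR alpha, and both receptors carry a ceramidase activity. AMPK is a heterotrimer of a catalytic alpha, a scaffold beta and a nucleotide-binding gamma subunit. It is switched on when AMP and ADP rise or when calcium activates the kinase CaMKK2, and it turns down lipid, sterol and protein synthesis.

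The promoters of both receptor genes are shown because the results below set these genes side by side. Each sequence holds the 250 bases before the start site, 5′ to 3′ on the gene's strand, from RefSeq on build GRCm38.p6. Capitals mark letters that match a searched motif. The Adipor1 start site is that of a GENCODE transcript, and the Adipor2 start site lies inside the GENCODE gene, 48 bases from the nearest annotated transcript start. The annotated 5′ end of Adipor2, at 119417704, lies upstream of the start site used, at 119388734. The bases before that 5′ end were not searched.
Adipor1, chr1:134415128-134415377, plus strand: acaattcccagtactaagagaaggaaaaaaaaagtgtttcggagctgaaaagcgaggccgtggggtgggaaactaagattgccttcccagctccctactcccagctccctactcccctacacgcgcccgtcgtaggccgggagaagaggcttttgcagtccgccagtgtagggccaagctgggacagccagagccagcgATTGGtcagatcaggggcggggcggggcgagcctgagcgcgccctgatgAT
Adipor2, chr6:119388735-119388984, minus strand: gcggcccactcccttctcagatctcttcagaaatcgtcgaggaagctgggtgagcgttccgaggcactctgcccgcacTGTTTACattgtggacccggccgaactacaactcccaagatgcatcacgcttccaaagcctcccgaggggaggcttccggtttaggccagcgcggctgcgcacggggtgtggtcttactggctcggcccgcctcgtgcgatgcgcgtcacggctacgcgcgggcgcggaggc

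The motifs were searched on both strands from 250 bases before to 50 bases after each start site, and they were picked after the expression values had been seen. In the 32851 promoter windows of the reference table, the cyclic AMP response element TGACGTCA occurred in 1.79%, the AP-1 site TGANTCA in 7.81%, the E-box CACGTG in 7.15%, the FoxO site TGTTTAC in 3.65%, the nuclear receptor half-site AGGTCA in 16.3% and the CCAAT box in 37.4%. The Adipor2 window held the FoxO letters, from base -172, and none of the other motifs. The Adipor1 window held a CCAAT box on the opposite strand, read as ATTGG, at base -51 and again at base -2. The latter match runs across the start site, so that only its first bases are printed. A further start site of Adipor1 in the table had the FoxO letters on the opposite strand, GTAAACA, from base +36. The windows of Appl2, Prkaa1 and Prkaa2 held none of the 6 motifs. Cdh13 and Appl1 were not in the promoter table. A match of letters does not show that a factor binds there.

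Total counts per library ranged from 51406011 to 81525977, and each member had between 1563 and 9019 counts in a library. Arc, an immediate early gene of active neurons that served as a check of the trained group, had 91.9 ± 4.98 CPM (read counts relative to the scaled size of the library, mean ± SD, n = 4) in homecage and 246 ± 21.02 CPM in SOR, a log2 fold change of 1.42 (adjusted p = 8.27e-06, quasi-likelihood test of edgeR). Markers of excitatory neurons and of hippocampal subfields were present in every library, with none of their genes at 0. The summed level of 6 choroid plexus markers was uneven, from 25.0 to 1091 CPM in homecage and from 41.3 to 3988 CPM in SOR, with the highest value in SOR replicate 1. The 8 oligodendrocyte markers summed to between 5428 and 5916 CPM in homecage and between 4436 and 5827 CPM in SOR. All 8 had negative log2 fold changes, with a median of -0.19, 0 past the adjusted p and 3 at an unadjusted p under 0.05 in edgeR. Opalin had the largest, -0.50 (adjusted p = 0.164, edgeR), without overlap. The part of these cells in the values below was not tested.

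The receptor genes had different values in the contrast. Adipor2 (ENSMUSG00000030168, chromosome 6, 119353150 to 119417704, minus strand, GRCm38) stood at 49.0, 45.8, 47.9 and 46.6 CPM in homecage replicates 1 to 4 and at 68.9, 67.5, 65.9 and 69.8 CPM in SOR replicates 1 to 4. Every SOR library lay above every homecage library, and the libraries of a group lay close together. The group means were 47.3 ± 1.43 CPM and 68.0 ± 1.67 CPM, a log2 fold change of 0.52 with a standard error (SE) of 0.04, or 1.44-fold. Its adjusted p, the value that put the set forward, was 3.78e-04 in the edgeR quasi-likelihood test over all genes, the rank of 4 by p. Calls were made where the adjusted p was under 0.05 and the fold exceeded 1.4, and Adipor2 lay just above that fold. Its interval of 2 SE to each side, from 0.44 to 0.60, included the threshold, a log2 fold change of 0.485.

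Adipor1 (ENSMUSG00000026457, chromosome 1, 134415378 to 134433351, plus strand) was listed at 57.9, 56.6, 56.1 and 55.7 CPM in homecage and at 61.4, 55.1, 54.6 and 57.2 CPM in SOR. All homecage values fell inside the range of the SOR values, and SOR replicate 1 was the highest library of all. The log2 fold change was 0.01 (SE 0.05), with an interval of 2 SE to each side from -0.08 to 0.10.

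Compared per kilobase of exon, which sets genes of different length on one scale, Adipor2 was below Adipor1 in homecage and level with it in SOR. The ratio of Adipor2 to Adipor1 within a library was 0.711, 0.681, 0.718 and 0.703 in homecage replicates 1 to 4 and 0.943, 1.03, 1.01 and 1.02 in SOR replicates 1 to 4. The ratio does not depend on how libraries are scaled, and its groups did not overlap. Its mean was 0.703 ± 0.0162 in homecage and 1.003 ± 0.0404 in SOR. Adipor2 thus made up 41.3 ± 0.562% of the summed receptor transcripts per kilobase in homecage and 50.1 ± 1.03% in SOR.

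**Figure D1:**
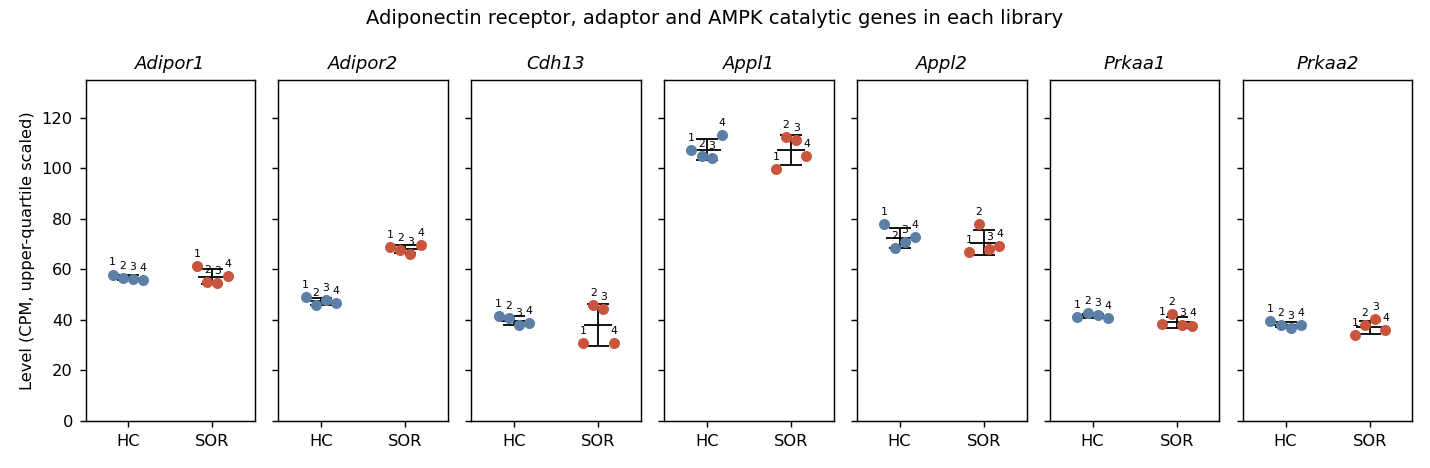
Level of each of the 7 genes in CPM (vertical axis) in the 4 homecage (HC, blue) and 4 SOR (red) libraries; numbers are replicates, bars the mean and SD. Adipor2 sits at 45.8 to 49.0 CPM in HC and 65.9 to 69.8 CPM in SOR, while the groups overlap for the other 6 genes and Cdh13 spreads from 30.7 to 45.9 CPM within SOR.

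Cdh13 (ENSMUSG00000031841, chromosome 8, 118283733 to 119324921, plus strand) encodes T-cadherin, a cadherin anchored to the membrane by a lipid that binds adiponectin oligomers. It stood at 41.7, 40.8, 37.8 and 38.6 CPM in homecage and 30.7, 45.9, 44.2 and 30.7 CPM in SOR. SOR replicates 1 and 4 were below every homecage library, and SOR replicates 2 and 3 were above every one. The coefficient of variation was 4.52% in homecage and 21.96% in SOR, where counting error alone gives 2.08%. The log2 fold change was -0.07 (SE 0.13), with an interval from -0.33 to 0.19, and it turned to 0.02 without SOR replicate 1 and to 0.02 without SOR replicate 4.

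The SOR libraries that were low in Cdh13 were high in blood markers. The 5 blood markers summed to 177 and 184 CPM in SOR replicates 1 and 4, to 115 and 118 CPM in SOR replicates 2 and 3 and to between 98.6 and 127 CPM in homecage. Homecage replicate 3, the lowest of its group in Cdh13, had 115 CPM of blood markers, inside that range. The 7 endothelial markers, of a cell type known to make T-cadherin, ranged only from 141 to 144 CPM in SOR and from 129 to 156 CPM in homecage. The part of these cells in the Cdh13 values was not tested.

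The adaptors lay close to their homecage levels. Appl1 (ENSMUSG00000040760, chromosome 14, 26918988 to 26971232, minus strand), which binds the inner part of the receptors and carries their signal to AMPK, stood at 107, 105, 104 and 113 CPM in homecage and 99.8, 112, 111 and 105 CPM in SOR. SOR replicate 1 was the lowest library and the groups overlapped. Its log2 fold change was -0.0035 (SE 0.05), with an interval from -0.10 to 0.09.

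Appl2 (ENSMUSG00000020263, chromosome 10, 83600033 to 83648738, minus strand), the paralog that can pair with Appl1, stood at 77.7, 68.4, 70.7 and 72.7 CPM in homecage and 66.9, 78.0, 67.9 and 69.3 CPM in SOR. A single library in each group, homecage replicate 1 and SOR replicate 2, was high. The log2 fold change was -0.04 (SE 0.06), with an interval from -0.15 to 0.08. The ratio of Appl2 to Appl1 per kilobase of exon was 0.988 ± 0.0541 in homecage and 0.965 ± 0.0514 in SOR, and the groups overlapped.

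The catalytic AMPK subunits were slightly lower on average in SOR, with overlapping groups. Prkaa1 (ENSMUSG00000050697, chromosome 15, 5143861 to 5181899, plus strand), which encodes alpha1, stood at 41.0, 42.6, 42.0 and 40.7 CPM in homecage and 38.2, 42.4, 38.1 and 37.7 CPM in SOR. Replicate 2 was the one SOR library within the homecage range, and the other SOR libraries lay below it. The log2 fold change was -0.09 (SE 0.05), with an interval from -0.19 to 0.01.

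Prkaa2 (ENSMUSG00000028518, chromosome 4, 105029874 to 105109890, minus strand), which encodes alpha2, stood at 39.4, 38.1, 36.8 and 38.0 CPM in homecage and 33.98, 37.8, 40.2 and 36.0 CPM in SOR. The lowest and the highest library were both SOR. Its log2 fold change was -0.04 (SE 0.06), with an interval from -0.15 to 0.07. Per kilobase of exon, Prkaa2 stood at 0.536 ± 0.0222 of Prkaa1 in homecage and 0.554 ± 0.0454 in SOR.

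**Figure D2:**
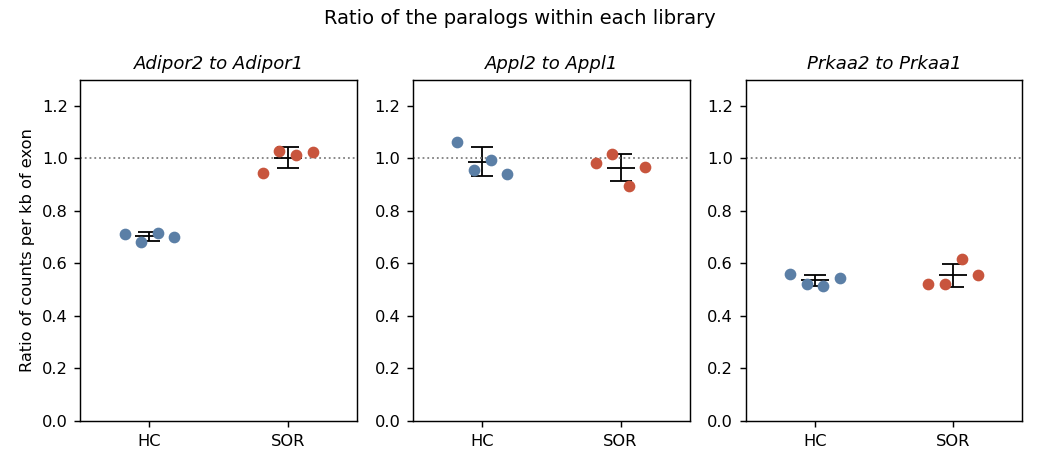
Ratio of counts per kilobase of exon for 3 pairs of paralogs (vertical axis) in each homecage (HC, blue) and SOR (red) library, with mean and SD; the dotted line marks equal levels. Adipor2 to Adipor1 has a mean of 0.703 in HC and 1.003 in SOR with no overlap, and the groups overlap for Appl2 to Appl1 and Prkaa2 to Prkaa1.

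In all, 1 of the 7 members was called, where 0.173% of the 22018 genes tested were called, and 1 of 7 passed the adjusted p alone, where 0.309% of all genes did. The groups did not overlap for 1 of 7 members, against 6.94% of all genes. Since the contrast served to choose the set, nothing is read from these counts. The median log2 fold change of the members was -0.04, beside -0.02 over all genes tested, and 5 of the 7 were negative. The 6 members other than Adipor2 ranged from -0.09 to 0.01. The coefficient of variation of Adipor2 was 2.46% in SOR and 3.02% in homecage. For the other members it was larger in SOR. How often that held over all genes was not counted, so nothing is read from it.

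**Figure D3:**
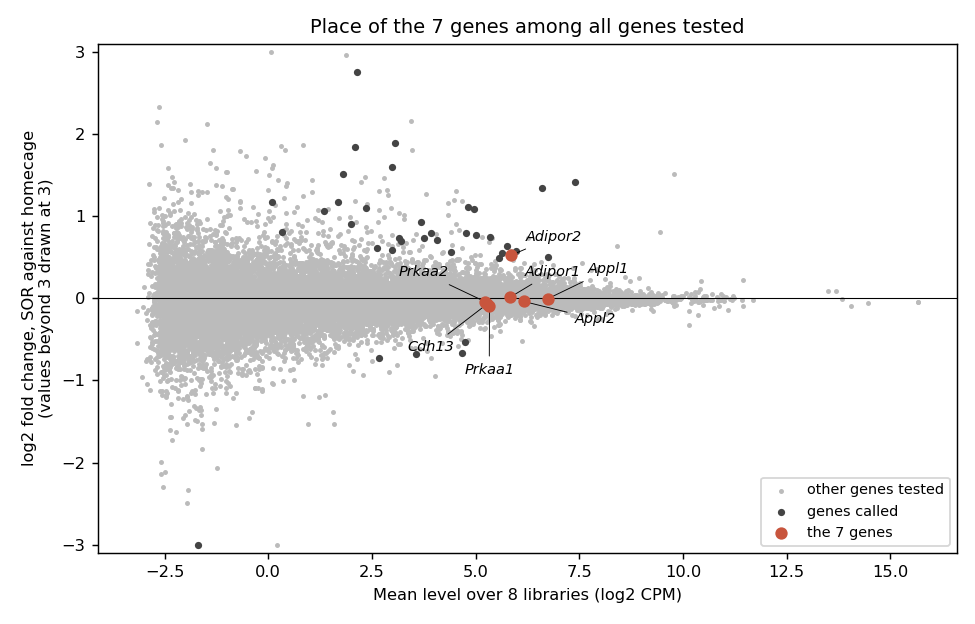
Log2 fold change, SOR against homecage (vertical axis), against the mean level over 8 libraries in log2 CPM (horizontal axis) for all genes tested (grey), the 38 genes called (black) and the 7 members (red). Adipor2 lies at 0.52 and the other 6 members lie between -0.09 and 0.01, in the dense band around 0.

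The order of the members by level per kilobase of exon changed in 1 place. In homecage it ran from Appl1 (12.3 ± 0.471 CPM per kb) over Appl2 (12.2 ± 0.669), Adipor1 (11.3 ± 0.194), Prkaa1 (8.93 ± 0.189), Adipor2 (7.91 ± 0.239) and Prkaa2 (4.78 ± 0.133) to Cdh13 (3.54 ± 0.160). Ranges of Appl1, Appl2 and Adipor1 overlapped between neighbours, and each later neighbour was separate from the one before. In SOR, Adipor2 (11.4 ± 0.280 CPM per kb) moved from below Prkaa1 to the side of Adipor1 (11.4 ± 0.614), and its range overlapped those of Appl2 and Adipor1. This order depended on the length used. With the length of the longest transcript in place of all exons, Appl2 exceeded Appl1, at a ratio of 1.53 in homecage and 1.49 in SOR. By that length Adipor2 was already above Prkaa1 in homecage, at 11.3 against 8.93 CPM per kb, so it did not move past Prkaa1. Also in homecage, Cdh13 was then above Prkaa2, at 8.70 against 4.78 CPM per kb, and Appl1 was below Adipor1.

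By Pearson correlation of log2 CPM over the 8 libraries, among the 16352 genes that averaged 1 CPM or more, those most like Adipor2 were Snx17 (r = 0.994), Dnajb5 (0.991), Arc (0.990), Egr2 (0.987) and Arhgap22 (0.986). These 8 points share the same libraries and the same split into groups. Snx17 encodes a sorting nexin of endosomes, Dnajb5 a heat shock protein 40 family member, and Egr2 a transcription factor of the immediate early class. Log2 fold changes were 0.42 for Snx17, 0.51 for Dnajb5, 2.75 for Egr2 and 0.18 for Arhgap22, so a like profile did not mean a like size. Among the other members r ran from -0.676 for Prkaa1 to 0.184 for Adipor1.

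Once each library was taken as its deviation from its group mean, the 5 most similar genes included Ydjc (r = 0.952), Lama2 (0.952), Gzf1 (0.943) and E430024I08Rik (0.942), and none of the 5 genes named above was among them. Between members, deviations correlated at 0.841 for Cdh13 with Prkaa2, at 0.755 for Appl1 with Prkaa2 and at -0.817 for Adipor1 with Appl1. These are descriptions over 8 libraries that share depth and tissue makeup.

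The other genes of the pathway were taken from lists of 143 genes, of which 139 were tested. None of the 139 passed an adjusted p under 0.05 in edgeR's quasi-likelihood test, and 17 had an unadjusted p under 0.05, beside 2213 of all 22018 genes. The count past the adjusted p was 5 with the likelihood ratio test of edgeR, where 214 of the 22018 genes passed. It was 7 with DESeq2 (435 of all genes) and 0 with limma-voom (63 of all genes). The groups did not overlap for 11 of the 139, or 7.91%, with 9 higher and 2 lower in SOR, where 6.94% of all genes did not overlap. The median log2 fold change of the 139 was 0.0033.

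**Figure D4:**
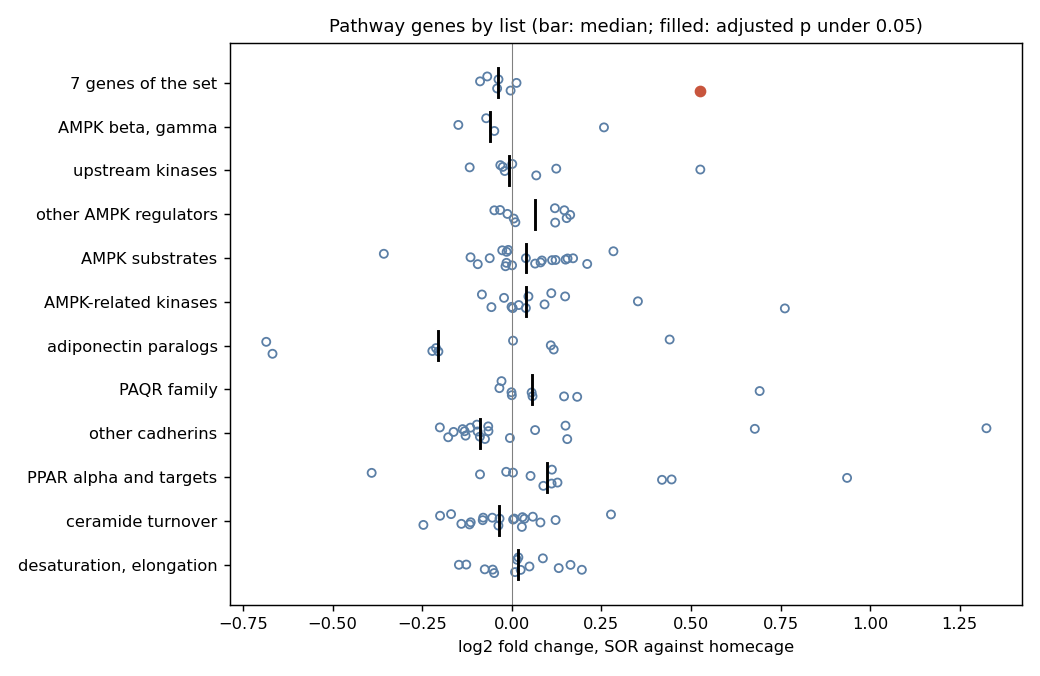
Log2 fold change, SOR against homecage (horizontal axis), of the members and of the tested genes in 11 pathway lists (rows); each circle is a gene, black bars are medians, and a filled circle passed an adjusted p under 0.05. Adipor2 is the only filled circle, and the list medians run from -0.20 for the adiponectin paralogs to 0.10 for PPAR alpha and its targets.

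Transcript of the hormone was at the limit of detection. Adipoq, which encodes adiponectin, was at 0 CPM in all 4 homecage libraries and in SOR replicates 3 and 4, and at 0.0269 and 0.0180 CPM in SOR replicates 1 and 2. A count of 0 allows up to between 0.0377 and 0.0589 CPM in these libraries (3 counts, for counting error only). The 6 adipocyte markers, Adipoq among them, summed to between 0.337 and 0.642 CPM over the 8 libraries. Of 9 tested paralogs of adiponectin in the C1q/TNF family, C1qtnf4 was the most abundant, at 45.1 ± 2.16 CPM in homecage and 45.3 ± 2.70 CPM in SOR. The largest differences in that list were of genes that averaged below 1 CPM, namely C1qtnf3 (log2 fold change -0.69), C1qtnf7 (-0.67) and C1qtnf9 (0.44). C1qtnf7 was at 1.69 CPM in homecage replicate 1 and between 0.351 and 0.511 CPM elsewhere, and without that library its value turned to 0.15.

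The receptors' own family, PAQR, had 9 other members tested with a median log2 fold change of 0.06. Paqr8, a membrane progesterone receptor, stood at 132 ± 8.38 CPM in homecage and 149 ± 7.11 CPM in SOR (log2 fold change 0.18, adjusted p = 0.250, edgeR). Paqr3, a Golgi protein, had 12.9 ± 0.520 and 14.2 ± 0.514 CPM without overlap (0.15, adjusted p = 0.498, edgeR). Paqr5 had the largest log2 fold change of the list, 0.69, on 2.91, 1.43, 1.98 and 1.67 CPM in homecage and 5.28, 1.77, 4.02 and 1.67 CPM in SOR. Without SOR replicate 1, the library highest in choroid plexus markers, it had 0.33. SOR replicates 2 and 3 differed in Paqr5 at like choroid plexus sums of 879 and 791 CPM, and the part of that tissue was not tested. Mmd was the most abundant at 176 ± 13.4 and 183 ± 10.7 CPM.

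Of 19 cadherins other than Cdh13, 14 had negative log2 fold changes. The median of the 19 was -0.09, beside -0.02 over all genes tested. In edgeR 1 of the 19 had an unadjusted p under 0.05, beside 2213 of all 22018 genes. The share of negative values over all genes was not counted, so nothing is read from the 14. Cdh11, the most abundant, stood at 157 ± 6.38 CPM in homecage and 145 ± 5.93 CPM in SOR without overlap (log2 fold change -0.12, adjusted p = 0.404, edgeR). Cdh3 had the largest value at 1.32, on levels from 0.014 to 1.09 CPM in homecage and from 0.0982 to 3.43 CPM in SOR. Its highest library was SOR replicate 1, as for the choroid plexus markers, whose part was not tested, and without it the value was 0.40. The epithelial cadherin Cdh1 had 0.68 on levels below 1 CPM, and Cdh7 had -0.20.

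Among the AMPK subunits that bind the catalytic ones, Prkab2, the beta2 scaffold, stood apart from the rest. It stood at 36.6, 31.7, 33.1 and 31.7 CPM in homecage and 40.3, 41.3, 37.7 and 39.5 CPM in SOR. Its groups did not overlap, with a log2 fold change of 0.26 (SE 0.06), but it missed the threshold (adjusted p = 0.129, edgeR). The other scaffold Prkab1, which was lower in level at 7.60 ± 1.04 and 6.86 ± 0.476 CPM, had -0.15. The gamma subunits Prkag1 and Prkag2 had -0.07 and -0.05, and Prkag3 did not exceed 0.112 CPM and was not tested. Per kilobase of exon, Prkab2 exceeded Prkab1 in both groups, at 6.53 against 2.48 CPM per kb in homecage.

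None of 8 genes of the upstream kinases had an unadjusted p under 0.05. Camkk2, the calcium-dependent kinase that acts on AMPK, stood at 95.7 ± 7.24 CPM in homecage and 104 ± 4.66 CPM in SOR (log2 fold change 0.12, adjusted p = 0.506, edgeR). Cab39, a scaffold of the LKB1 complex, was the most abundant at 258 ± 4.45 and 254 ± 2.50 CPM, and the LKB1 pseudokinase partner Strada had -0.12. Cab39l had the largest log2 fold change of the list, 0.53, on values of 36.8, 19.2, 20.1 and 36.7 CPM in homecage and 74.3, 36.2, 31.4 and 19.9 CPM in SOR. SOR replicate 1 was highest and homecage replicates 2 and 3 and SOR replicate 4 were lowest both in Cab39l and in the choroid plexus sum, and the part of that tissue was not tested. Without SOR replicate 1 its value was 0.05.

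Of 10 other AMPK regulators, the sestrin Sesn1 had the largest log2 fold change, 0.16, at 53.4 ± 0.827 and 59.8 ± 3.70 CPM without overlap (adjusted p = 0.267, edgeR). The folliculin partner Fnip2 had 0.15 and the sestrin Sesn2 0.15. The AMPK phosphatase Ppm1e was the most abundant, at 442 ± 10.3 and 444 ± 19.0 CPM.

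The 21 AMPK substrates centred on a log2 fold change of 0.04, and 4 of them had an unadjusted p under 0.05. Foxo3, a transcription factor of stress resistance, had 53.0 ± 1.65 and 61.4 ± 4.68 CPM (0.21, adjusted p = 0.213, edgeR), without overlap. Srebf1, a regulator of fatty acid synthesis, had 42.4 and 33.1 CPM on average (-0.36, adjusted p = 0.382, edgeR), with overlap. The most abundant substrate, the kinesin light chain Klc1, had -0.01 at 474 ± 23.0 and 469 ± 28.6 CPM.

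The 13 AMPK-related kinases, which share the activator LKB1 or the kinase domain, held the smallest adjusted p of the pathway genes. Sik1, a salt-inducible kinase that holds CREB co-activators in the cytoplasm, stood at 5.96, 3.83, 4.52 and 4.78 CPM in homecage and 7.45, 7.42, 9.83 and 7.62 CPM in SOR. The groups did not overlap, and the log2 fold change was 0.76 (SE 0.15, adjusted p = 0.0775, edgeR). Its relative Sik2 stood at 30.7, 27.4, 27.6 and 27.9 CPM in homecage and 33.7, 38.6, 39.2 and 33.4 CPM in SOR, again without overlap (log2 fold change 0.35, SE 0.07, adjusted p = 0.0805, edgeR). With TMM or RLE scaling Sik2 passed the threshold, and without a filter on low counts Sik1 did. Nuak1 had 0.15, and Brsk1, a kinase of neuronal polarity and the most abundant of the list, had 0.02 at 108 ± 4.72 and 110 ± 4.66 CPM.

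On the branch linked to AdipoR2, 12 of 14 genes for PPAR alpha and its targets were tested, with a median of 0.10. Pdk4, which encodes a kinase that holds back pyruvate oxidation, stood at 6.50, 5.83, 6.32 and 7.39 CPM in homecage and 8.85, 8.97, 8.45 and 9.23 CPM in SOR. Every SOR library was above every homecage library (log2 fold change 0.45, SE 0.09, adjusted p = 0.103, edgeR). Ppara itself had 1.89 ± 0.367 and 2.53 ± 0.319 CPM (0.42, adjusted p = 0.423, edgeR). Ucp2 had 0.94, with SOR replicate 1 at 19.3 CPM, and choroid plexus markers were highest in that library too. SOR replicates 2 to 4 stayed within 4.48 to 4.71 CPM of Ucp2, while their choroid plexus sums ran from 41.3 to 879 CPM. Homecage had 3.47 to 4.98 CPM of Ucp2, and homecage replicates 2 and 3 were lowest both in Ucp2 and in the choroid plexus sum. The part of that tissue in the Ucp2 values was not tested. Without SOR replicate 1 Ucp2 had 0.07.

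The 20 genes of ceramide and sphingosine turnover, the reaction the receptors are known to catalyse, had a median of -0.04, and groups overlapped for all 20. The largest differences were of the ceramidase Acer2, the kinase Sphk1 (log2 fold change -0.25) and the sphingosine phosphate receptor S1pr5 (-0.20). Acer2 had 0.28 (adjusted p = 0.447, edgeR). With 1 library left out, Sphk1 ran from -0.48 (without SOR replicate 3) to -0.02 (without homecage replicate 3). S1pr1 was the most abundant at 161 ± 9.51 and 175 ± 21.8 CPM. S1pr5 stood at 14.9 to 16.5 CPM in homecage and at 11.6, 14.8, 12.6 and 16.6 CPM in SOR, low in SOR replicates 1 and 3, where the oligodendrocyte sums of 4927 and 4436 CPM were also the lowest, and the part of those cells was not tested. The 14 genes of fatty acid desaturation and elongation had a median of 0.02. The elongase Elovl6 had 69.9 ± 2.24 and 78.3 ± 3.30 CPM without overlap (0.16, adjusted p = 0.209, edgeR), while Fads6 had -0.15 and the most abundant gene, Scd2, -0.05. Elovl7 had 0.20, on 16.9, 12.2, 13.3 and 16.7 CPM in homecage and 26.5, 16.4, 13.7 and 10.9 CPM in SOR. It was highest in SOR replicate 1, as the choroid plexus markers were, and without that library its value turned to -0.11. The part of choroid plexus was not tested.

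Without SOR replicate 1, the library highest in choroid plexus markers, the log2 fold change of Adipor2 was 0.52. Sums of those markers still ran from 25.0 to 1091 CPM in homecage and from 41.3 to 879 CPM in SOR replicates 2 to 4. The part of that tissue in the Adipor2 values was not tested. Over 13 processing alternatives the log2 fold change of Adipor2 ranged from 0.52 to 0.55, and over the 8 fits that left out 1 library each from 0.51 to 0.54. Adipor1 ranged from -0.0012 to 0.04 and from -0.03 to 0.03 in the same fits. Adipor2 was the only member called in each of these fits. No annotated gene overlapped Adipor1, Adipor2, Appl2 or Prkaa2, and those that overlapped Cdh13, Appl1 or Prkaa1 did not exceed 0.188 CPM in a library.

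**Figure D5:**
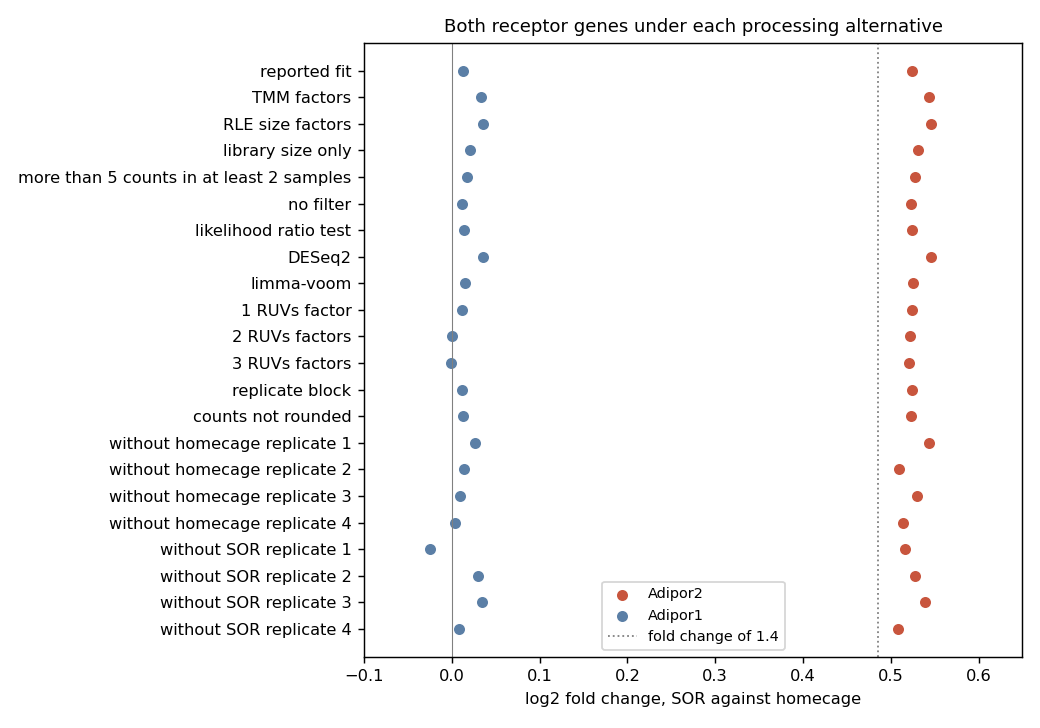
Log2 fold change, SOR against homecage (horizontal axis), of Adipor2 (red) and Adipor1 (blue) in the reported fit, 13 processing alternatives and 8 fits without 1 library (rows); the dotted line marks a fold change of 1.4. Adipor2 stays between 0.51 and 0.55, right of that line, and Adipor1 between -0.03 and 0.04.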

How the data were processed

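Bulk RNA-seq libraries of dorsal hippocampus (4 homecage, 4 SOR) were analysed; spatial, single-nucleus and ATAC samples were not analysed here. Per the methods, the authors prepared stranded total RNA with ribosomal depletion (the labels name polyA RNA), aligned reads with STAR within bcbio-nextgen and counted per gene with featureCounts. The deposited values are estimated counts per gene summarized with tximport, without normalization. Whether abundance scaling or strand entered these counts is not given in the sources used here. Of the table's columns, 0 were left unused.

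Estimated counts were rounded, filtered with filterByExpr and scaled with upper-quartile factors. CPM use the scaled library sizes. SOR was compared with homecage with edgeR 4.0.16 in R 4.3.3 (quasi-likelihood F test), and p was adjusted over 22018 genes by the Benjamini-Hochberg procedure. A call needed both an adjusted p below 0.05 and a fold over 1.4. SE was derived from the log2 fold change and F. Intervals span 2 SE to each side. Positions, types and exon lengths came from GENCODE M21 (GRCm38), which matched 54495 of 54532 rows. The scripts were tested on simulated data.

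The members and the gene lists were chosen with earlier results of these data known. Named genes were all members, list genes past the adjusted p, the 3 largest absolute log2 fold changes and the most abundant gene of each pathway list, Arc, and the 5 genes most correlated with Adipor2 by either measure (log2 of CPM plus 0.5). Prkag3 and Adipoq, which were not tested, were named for their role, with the values known. A few genes that the rule names are not reported here. Alternatives were other scalings (TMM, RLE, library size), other filters (over 5 counts in 2 or more libraries, or none) and other tests. The tests were the likelihood ratio test, DESeq2 1.42.0 and limma-voom (limma 3.58.1). Further alternatives were RUVs factors (fitted with the likelihood ratio test), a replicate block and unrounded counts. No fold threshold, another gene length and leaving out each library were also tried.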

Additional observations from a re-analysis of the deposited data

Results flagged for a closer look

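Each of the 7 members and each of the 3 paralog ratios was examined in both groups of 4 libraries, 20 groups in all, for a library set apart from the rest by Dixon's ratio (gap to the nearest library over the whole range, set against Dixon's published critical value). In 1 group it was exceeded, where chance alone gives about 1 in 20. Prkaa1 in SOR had a ratio of 0.907, because SOR replicate 2 was at 42.4 CPM and the other SOR libraries at 37.7 to 38.2 CPM. Without that library the log2 fold change of Prkaa1 was -0.13, beside -0.09 with it (adjusted p = 0.396 and 0.592, edgeR). The cause was not tested.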

How the results depend on the processing

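No member changed its call under any alternative. Adipor2 had its largest adjusted p, 0.00958, with the replicate block, and between 0.00122 and 0.00392 with 1 library left out. These refits use the libraries whose contrast put the set forward, so their values are a description only. Log2 fold changes near 0 changed sign for Adipor1 (with 3 RUVs factors and without SOR replicate 1), Appl1, Appl2 and Cdh13, always by less than the spread between libraries. Other scalings moved the median of all genes by at most 0.02. The 38 genes called (33 higher, 5 lower, 86.8% higher) became 105 with the likelihood ratio test (65.7% higher) and 114 with DESeq2 (71.9%). With 1, 2 and 3 RUVs factors they became 134, 191 and 203 (61.9%, 54.5% and 51.7%). The RUVs fits also used the likelihood ratio test, so their like comparison is the 105 genes, not the 38. The count was 68 with no fold threshold, 30 with the replicate block and 22 to 38 with 1 library left out. It was lowest without homecage replicate 2 (22) and homecage replicate 4 (25). Pathway genes past the adjusted p were 0 in the reported fit and 0 with any library left out. They were 1 with TMM or RLE factors (Sik2), where 83 and 81 of all genes passed, and 1 with no filter (Sik1, 84 of all genes). With the likelihood ratio test (214 of all genes) or 1 RUVs factor (305) they were 5. All 5 were higher, Pdk4, Prkab2, Sik1 and Sik2 among them. They were 7 with DESeq2 (435 of all genes, also Elovl6 and Foxo3). With 2 RUVs factors they were 7 (500 of all genes, also Foxo3 and Ucp2), and with 3 they were 8 (508, also Srebf1, lower). With the longest transcript as the length, Appl2 to Appl1 was 1.53 in homecage and 1.49 in SOR, against 0.988 and 0.965. The order of the members changed with that length, and Adipor2 was above Prkaa1 in homecage, at 11.3 against 8.93 CPM per kb. Whether equal replicate numbers pair the mice is not given in the sources used here. Deviations of same-numbered libraries correlated at 0.183, -0.159, -0.0836 and -0.155. Those of libraries with different numbers ranged from -0.332 to 0.320. These values cannot show whether mice were paired by day or handling. The causes of these shifts were not tested. With 4 mice a group, members other than Adipor2 are bounded only to within about 2 SE of their values.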
